A study of Drosophila melanogaster with 62 samples.

Results

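The cytosolic ribosomal protein genes of Drosophila melanogaster were followed across fat body RNA-seq libraries of larvae reared on control and high-sucrose food. Members were taken by name from the deposited expression table: gene names that begin with RpL or RpS followed by a digit, the stalk genes RpLP0, RpLP1 and RpLP2, and the genes named sta, sop and oho23B, which encode RpSA, RpS2 and RpS21. This gave 87 genes of 14659 in the table, 49 of the large subunit and 38 of the small subunit.

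All larvae carried UAS-Dcr2 on the X chromosome, which strengthens RNA interference, and a GAL4 driver, and were taken at the wandering third-instar stage. The table held 61 libraries of 18 groups in 4 experiments, and the labels list 62 samples. In the first experiment cg-GAL4 males with dissected fat body were either controls from a cross to the w1118 stock of the Vienna collection (VDRC) or carried Tfb1 RNAi (VDRC 12580), on 0.15 M or 1.0 M sucrose, with n = 3 per group. In the second, cg-GAL4 females crossed to w1118 were reared on 0.15 M or 0.7 M sucrose (n = 3 per group). In the third, r4-GAL4 females crossed to w1118 were reared on 0.15, 0.3, 0.7 or 1.0 M sucrose (n = 3 per group). In the fourth, r4-GAL4 females crossed to the 60100 stock served as controls for FOXO RNAi (VDRC 106097), p53 RNAi (VDRC 103001) and Stat92E RNAi (VDRC 106980), on 0.15 M or 0.7 M sucrose. Groups of the fourth experiment had n = 4, except p53 RNAi on 0.15 M sucrose with n = 3 of 4 labelled samples. Fat body of all females was floated, that is, sheared free and separated by centrifugation. These groups are called cg males, cg females, w1118 females and 60100 females here. The cg driver is active in fat body and in hemocytes, and r4 is a fat body driver. One RNAi line stood for each target.

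Each cytosolic ribosome contains a single copy of most ribosomal proteins, built around ribosomal RNA in a small subunit that decodes the mRNA and a large subunit that joins amino acids. The larval fat body, which combines roles of liver and adipose tissue, makes storage and blood proteins in bulk and grows by endoreplication, so it needs many ribosomes. Ribosomal protein mRNAs carry a 5' terminal oligopyrimidine tract through which the TOR pathway controls their translation, and in flies the loss of a single copy of many of these genes gives the slow-growing Minute phenotype.

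Values are FPKM, a fragment count set against transcript length and library depth. Every library of an experiment had an equal number of genes at 1 or above, to within 1 gene, so the FPKM had been scaled, and they are called scaled FPKM. They are relative within an experiment, and summed scaled FPKM per library ranged from 25088.3 to 76932.4. Taking the lower edge of the values multiplied by transcript length as 1 fragment, 1 scaled FPKM on 1 kb was put at 2.51 to 31.62 fragments. This is a rough estimate, by which members near 1 rest on few fragments. Of the 61 libraries, 18 were matched to a sample by title and 43 to a group only, and library numbers in the latter follow column order and serve as names. The labels give cg as the driver of the males where the column headings give r4, and the labels were followed; msl-2, the male dosage compensation gene, was at 0.106 to 0.254 in the male libraries and at most 0.083 in the female ones. Of 11 fat body markers, 10 were found, and all 10 were above 0 in each group. Tfb1 was at 1.05, 0.642 and 0.768 in control and at 0.546, 0.352 and 0.502 in Tfb1 RNAi libraries on 0.15 M sucrose. Stat92E was at 2.20, 4.26, 2.49 and 1.77 in control and at 0.494, 0.331, 0.631 and 0.318 in Stat92E RNAi libraries on 0.15 M. Under FOXO RNAi on 0.15 M Stat92E was at 0.936, 2.14, 0.854 and 0.895, so lower values were not limited to its own RNAi. All 4 targeted genes had lower values in each RNAi group on 0.15 M sucrose than in each control library. For p53 the groups nearly touched on 0.15 M, at 0.0982, 0.122, 0.162 and 0.123 in controls and 0.0962, 0.0975 and 0.0775 under RNAi. Such values rest on few fragments, so a lowering of p53 is uncertain. At 0.7 M or 1.0 M the separation held for Tfb1, Stat92E and p53. The foxo ranges overlapped at 0.7 M (0.304, 0.242, 0.196 and 0.498 in controls, 0.218, 0.206, 0.241 and 0.141 under FOXO RNAi). The labels do not say that libraries of a group came from separate cultures, so the spread behind each p-value is that among libraries and may be technical.

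The second library of several groups of 60100 females stood apart from the others of its group. Over the 80 members with a mean of at least 1, the second library was the highest or lowest of its group for 93.8% of members under FOXO RNAi on 0.15 M, 72 of 80 under FOXO RNAi on 0.7 M, 88.8% under Stat92E RNAi on 0.15 M, 82.5% in controls on 0.7 M and 77.5% under p53 RNAi on 0.7 M. Over all genes the shares were 80.3%, 76.3%, 74.1%, 70.1% and 65.6%. By the count of members at an extreme, the second library did not stand apart in every group. In controls on 0.7 M the fourth library was an extreme for 77.5% of members and 71.9% of all genes. In controls on 0.15 M the second library was an extreme for 53.8% of members and the fourth for 71.2%, and for 64.9% and 62.8% of all genes. Under Stat92E RNAi on 0.7 M these were 55% and 67.5% of members and 51.4% and 64.7% of all genes. With 4 libraries, 2 of them are an extreme for each gene. Results of the 60100 females are also given without the second column of every group, a choice made after the data were seen. That choice also removed libraries that did not stand apart by the count of members.

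Most of the 87 genes were among the most abundant mRNAs of the tissue. Averaged over the 18 groups, 80 genes had a level of at least 10 scaled FPKM, with a median of 110.4, and 7 had a level under 1. Among the 6 with the highest levels were the large-subunit genes RpL36 at 313, RpL29 at 298, RpL23 at 277 and RpL13A at 207, the acidic stalk gene RpLP2 at 297, whose protein recruits elongation factors to the ribosome, and RpS26 at 236, at the mRNA exit channel. At the low end of the 80 were RpL34a at 15.9, RpL38 at 26.01, RpS15Ab at 30.2 and RpL22 at 35.7, so that levels spanned 19.7-fold. In each group between 40 and 65 of the 87 were among the 100 genes with the highest scaled FPKM, and between 71 and 79 were among the top 200. The median transcript length was 807 bases for the members and 1751 bases for all genes with a known length.

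Of the single-copy genes with a role outside the ribosome, RpS27A and RpL40 each encode ubiquitin fused to a ribosomal protein, and their levels averaged 174 and 92.6 scaled FPKM. RpS6, the target of S6 kinase, averaged 82.97. The genes were spread over all chromosomes, with 22 on 3R, 20 on 2R, 16 on 2L, 15 on X, 13 on 3L and 1, RpS3A, on chromosome 4. In the annotation, 27 of the 87 share exon sequence with another gene, 22 of them on the opposite strand and 8 on the same strand. RpL12 and RpL39 overlap each other on opposite strands, RpS27A overlaps Ip259 on the same strand, and RpS6 overlaps a pseudogene. Whether the counting used strand is not given in the sources used here, so reads of such pairs cannot be told apart.

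Summed over the 87 genes, ribosomal protein mRNA took between 11.7% and 26.2% of the summed scaled FPKM of a library. In control males the share was 12.6, 11.7 and 12.4% on 0.15 M sucrose and 14.8, 15.3 and 15.5% on 1.0 M, without overlap. Under Tfb1 RNAi the mean share was 12.1% ± 0.503 (SD, n = 3) on 0.15 M and 16.8% ± 0.8286 (SD, n = 3) on 1.0 M. A share rests on the rest of the library, and summed scaled FPKM in control males was 48260.2 to 52391.7 on 0.15 M and 31360.5 to 36708.0 on 1.0 M.

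In cg females the share was 17.2% ± 1.31 (SD, n = 3) on 0.15 M and 16.8% ± 0.678 (SD, n = 3) on 0.7 M, and the groups overlapped. In w1118 females it was 17.4% ± 2.34, 19.3% ± 1.35, 19.9% ± 0.807 and 18.98% ± 0.630 (SD, n = 3 each) from 0.15 M to 1.0 M, and library 2 on 0.15 M had the lowest value, 14.7%. In the 60100 controls the 4 libraries held 16.8, 18.3, 17.05 and 16.9% on 0.15 M and 19.1, 23.5, 20.05 and 17.4% on 0.7 M, with library 4 on 0.7 M within the range of the control diet. FOXO RNAi libraries held 23.5, 20.8, 22.7 and 24.4% on 0.15 M and 23.95, 21.7, 23.5 and 26.2% on 0.7 M. Means under p53 RNAi were 20.5% ± 0.337 (SD, n = 3) and 23.9% ± 1.01 (SD, n = 4), and those under Stat92E RNAi were 21.1% ± 0.203 and 22.99% ± 0.337 (SD, n = 4 each). On 0.15 M every library of the 3 RNAi groups was above all 4 control libraries. On 0.7 M the control library 2 lay within the range of the RNAi groups, and its 3 fellows lay below all RNAi libraries. No test was made of the share.

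**Figure D1:**
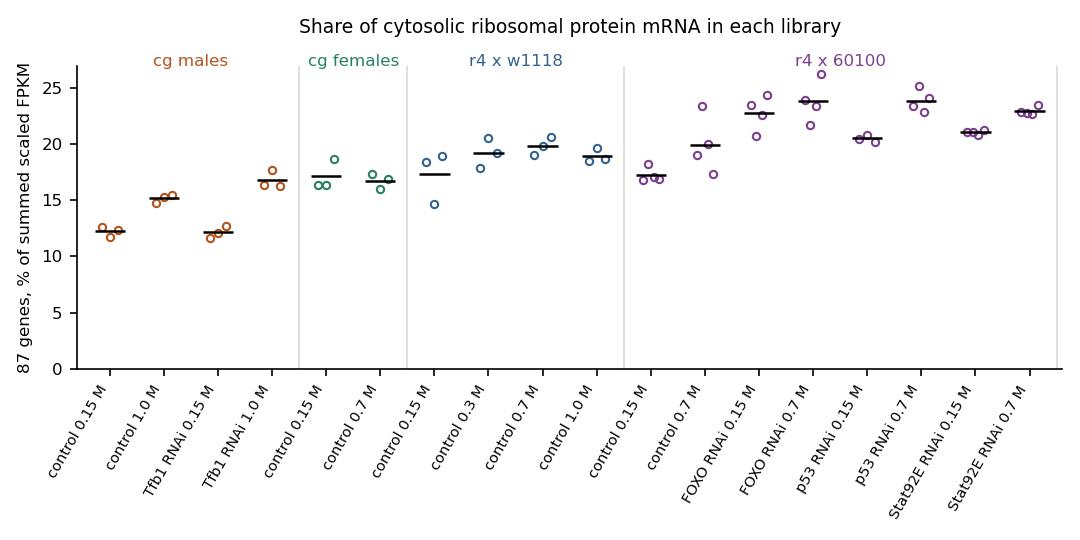
Share of the 87 cytosolic ribosomal protein genes in the summed scaled FPKM of each library, in percent, by group. Circles are libraries and bars are group means; the lowest libraries are males on 0.15 M sucrose and the highest, 26.2%, is a FOXO RNAi library on 0.7 M.

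Several ribosomal proteins have a second gene copy in flies, and some of these copies are known from the germline. The copies RpS19b, RpL10Aa and RpL22-like were above 0 in 12 of 12 male libraries. RpS19b was at 0.956 to 2.54 scaled FPKM there and above 0 in 3 of 49 female libraries, at 0.142 or less. RpL10Aa was at 0.69 to 1.73 and RpL22-like, a paralog of RpL22 that is enriched in testis, at 0.524 to 1.42 in males, and both were listed at 0 in all 49 female libraries. RpL37b was above 0 in 11 and RpS10a in 8 of 12 male libraries, reaching 1.64 and 0.815, and both were listed at 0 in all female libraries.

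These low levels compare with far higher levels of the main copies. The mean of RpL22-like was between 2.91% and 6.10% of that of RpL22 in the 4 male groups, and that of RpS19b was between 2.49% and 3.02% of that of RpS19a. Estimated fragments behind RpS19b in a male library ranged from 1.8 to 10.7. RpS5b was above 0 in all 12 male libraries, at 0.424 to 0.855, and in 42 of 49 female libraries, reaching 0.854. RpS28a was listed at 0 in all 61 libraries, whereas its partner RpS28b averaged 86.2.

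All males were of 1 experiment and had dissected fat body, and all females had floated fat body, so sex, experiment and way of isolation cannot be told apart. Of 18 testis markers, 16 to 18 were above 0 in each male group, with summed levels of 30.1 to 70.5, against at most 1.22 in any female library. Of 9 salivary gland markers all were above 0 in each male group, with summed levels of 1201 to 3244. Their part in the levels of the second copies was not tested.

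**Figure D2:**
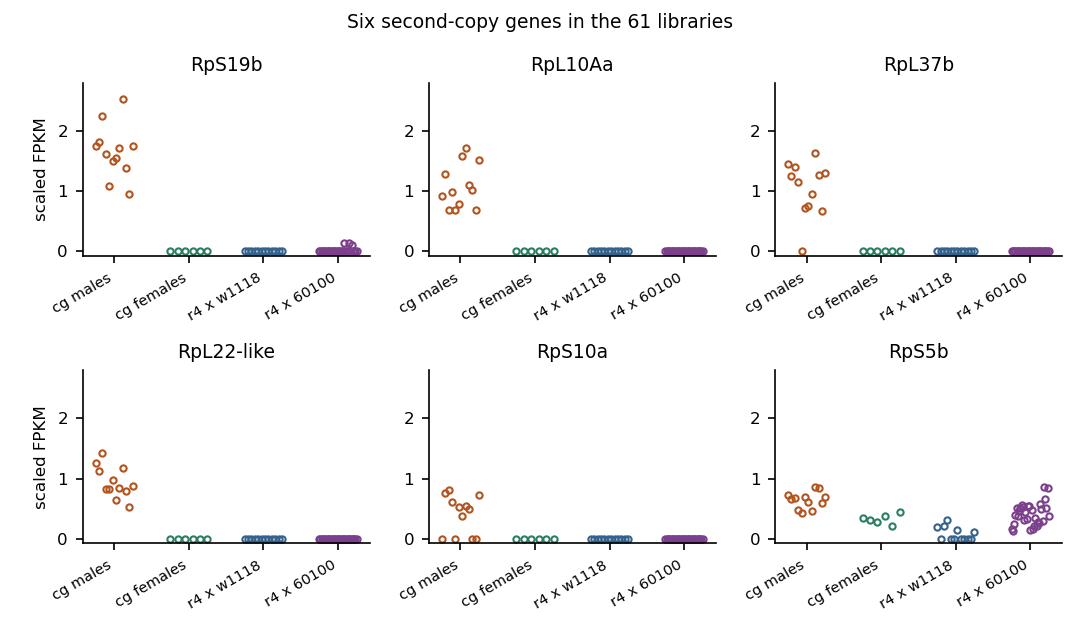
Scaled FPKM of 6 second-copy ribosomal protein genes in each library, by experiment. Circles are libraries; RpL10Aa, RpL37b, RpL22-like and RpS10a lie at 0 in all female libraries, and RpS5b is above 0 in most libraries of both sexes.

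Other pairs were expressed from both copies. Group means of RpS14b were 40.4% to 104% of those of RpS14a, those of RpS15Ab 20.98% to 46.8% of those of RpS15Aa, and those of RpL34a 13.6% to 46.7% of those of RpL34b. The copies of such pairs are close in sequence, and how the authors' counting split reads between them is uncertain.

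Libraries of a group that were high for one of these genes tended to be high for the others. Taking each library's deviation from its group mean, the correlation of a gene with the median of the other members had a median over 80 genes of 0.89 in cg females, 0.77 in cg males, 0.86 in w1118 females and 0.83 in 60100 females. All points of a library share its scaling, so this is a description. RpL38 had the largest spread within groups in both r4 experiments, with an SD of 1.12 in w1118 and 0.79 in 60100 females on the log2 scale, against median SDs of 0.25 and 0.26.

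Differences were tested gene by gene with limma on log2(scaled FPKM + 1), within one experiment and over all genes with a mean of at least 1, and a gene was called at a Benjamini-Hochberg adjusted p under 0.05. In males 83 of the 87 passed this filter, and in each female experiment 80 did. The second copies RpS19b, RpL10Aa and RpL37b passed in males only. In whole tissue, fewer cells of a type and less RNA per cell cannot be told apart. Counts from fits that left out 1 library are given without the share of all genes called. They show only how far 1 library moved the members' counts. Comparisons that use the same control libraries (the diet and both RNAi comparisons in males, and the diet and all RNAi comparisons in 60100 females) are not independent of each other.

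In control males, 12 of 83 ribosomal protein mRNAs fell on 1.0 M against 0.15 M sucrose in scaled FPKM and 0 rose, where 22.9% of all genes tested fell and 5.37% rose. The members' median difference was -0.29 (log2) against -0.13 for all genes tested. For 31 members the groups did not overlap and 1.0 M was lower, beside 33.6% of all genes. The count was 0 without library 1 on 0.15 M, 4 without library 3 on 0.15 M, 2 and 1 without libraries 1 and 2 on 1.0 M, and 28 without library 3 on 1.0 M.

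RpL23, a large-subunit protein, was at 138, 121 and 107 scaled FPKM on 0.15 M and at 77.9, 67.8 and 96.1 on 1.0 M. All 3 libraries on 1.0 M were below those on 0.15 M, and the log2 difference was -0.60 ± 0.15 (SE), adjusted p = 0.0124. RpLP0, which anchors the stalk, was at 36.9, 25.6 and 36.9 and then at 22.4, 13.8 and 26.7. The ranges overlapped by 1 library each, 25.6 on 0.15 M and 26.7 on 1.0 M, and the difference was -0.67 ± 0.23 (SE), adjusted p = 0.0487. RpL34b and RpL19 also fell, by 0.62 and 0.59 on the log2 scale. The other stalk genes did not pass the test, with differences of -0.03 for RpLP1 and -0.24 for RpLP2, nor did sta (-0.45), sop (-0.52), RpS6 (-0.34) or RpL40 (-0.29).

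The direction depended on the scale. With each library rescaled by its total without the members, the members' median was 0.33 in place of -0.29 and 43 members rose while none fell, beside 39.5% and 7.92% of all genes. That rescaling moved the median of all genes tested by 0.43, to 0.29, so that relative to all genes the members' median went from -0.16 to 0.04. Under the same rescaling RpL23 and RpL19 turned to 0.03. Fat body markers summed to 9389 to 11077 on 0.15 M and to 2853 to 4472 on 1.0 M, and 7 of the 10 fell and 1 rose. Among those that fell was the storage protein gene Lsp1alpha (-4.09 ± 0.30 (SE), adjusted p = 1.12e-05). Of 10 testis markers tested, 4 rose and 0 fell, among them dj (0.84 ± 0.25 (SE), adjusted p = 0.032). The part of these markers in the result was not tested.

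Tfb1 encodes a subunit of TFIIH, the general factor that opens promoters and repairs DNA. On 0.15 M sucrose, 55 of 83 ribosomal protein mRNAs fell under Tfb1 RNAi and 0 rose, where 25.8% of all genes tested fell and 10.4% rose. The members' median difference was -0.51 against -0.13 for all genes, and 80 of the 83 had a negative sign. Both subunits took part, with 28 of 48 large-subunit and 27 of 35 small-subunit genes called lower. For 67 members all RNAi libraries were below all control libraries, beside 34.9% of all genes. Leaving out 1 library gave 34 to 56 calls, the lowest without control library 1.

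The gene that fell most was oho23B, which encodes RpS21 of the small subunit. Its scaled FPKM was 105, 111 and 101 in controls and 39.9, 36.2 and 40.9 under Tfb1 RNAi. The groups were far apart, and the log2 difference was -1.41 ± 0.13 (SE), adjusted p = 1.98e-05. Set against the median of the members in each library it was still -0.85 ± 0.11 (SE), adjusted p = 0.00017. RpLP2 of the stalk was at 165, 194 and 189 in controls and at 94.9, 93.7 and 91.6 under RNAi, a difference of -0.96 ± 0.13 (SE), adjusted p = 0.000184. Its 3 RNAi libraries were close together and all below the controls.

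RpS28b was at 80.3, 95.8 and 87.5 in controls and 47.9, 48.6 and 43.05 under RNAi (-0.90 ± 0.13 (SE), adjusted p = 0.000413). For RpL36 the values were 145, 105 and 111 and 61.7, 69.9 and 63.8 (-0.87 ± 0.13 (SE), adjusted p = 0.000537). In both genes each RNAi library was below each control library, and these 4 calls held without any 1 library and under each other filter, pseudocount and scaling tried. RpS6 fell as well (-0.64 ± 0.16 (SE), adjusted p = 0.0113), as did the ubiquitin fusions RpS27A (-0.66 ± 0.12 (SE), adjusted p = 0.00193) and RpL40 (-0.34 ± 0.10 (SE), adjusted p = 0.0276).

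Some members did not follow. RpL4, a large-subunit protein that lines the exit tunnel, was at 15.7, 12.9 and 13.8 in controls and 15.9, 15.3 and 12.5 under RNAi, and sop was at 29.6, 18.7 and 22 and 21.8, 24.1 and 20.4. The ranges overlapped in both, with differences of 0.04 ± 0.18 (SE), adjusted p = 0.902 for RpL4 and -0.06 ± 0.25 (SE), adjusted p = 0.891 for sop. Relative to the members' median, 12 members were called higher and 4 lower, beside 46% and 8.71% of all genes, RpL4 by 0.61 ± 0.17 (SE), adjusted p = 0.0124 and sop by 0.50 ± 0.19 (SE), adjusted p = 0.045.

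The size of the fall rested on the scale. Rescaled by the total without the members, the members' median was 0.00, with 6 members called higher and 8 lower, beside 26.5% and 10.8% of all genes, and the median of all genes moved by 0.35 to 0.22, so the members were at -0.22 relative to all genes in place of -0.38. With a trend on transcript length removed, 1 member rose and 30 fell, beside 17.4% and 18.6% of all genes. Summed fat body markers were 9389 to 11077 in controls and 4631 to 5359.7 under Tfb1 RNAi, with 8 of 10 called lower, and 3 of 9 salivary gland markers were lower. The 1 hemocyte marker tested, He, rose (0.61 ± 0.21 (SE), adjusted p = 0.045). The part of these markers was not tested.

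**Figure D3:**
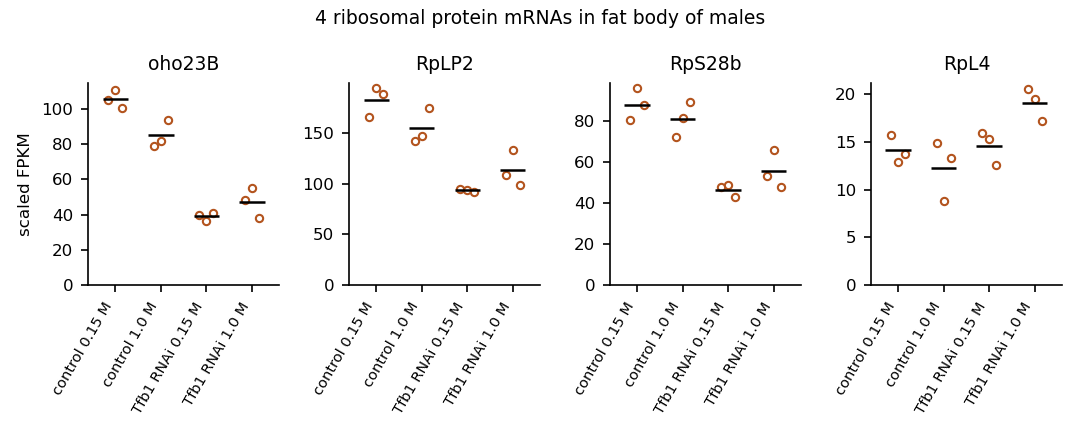
Scaled FPKM of oho23B, RpLP2, RpS28b and RpL4 in the fat body of males, by genotype and sucrose concentration. Circles are libraries and bars are means of 3; the Tfb1 RNAi libraries of oho23B lie below every control library on both diets.

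On 1.0 M sucrose, 1 member rose and 7 fell under Tfb1 RNAi, where 12.2% of all genes rose and 11.9% fell. The members' median was -0.10 against -0.03 for all genes, and it was 0.02 without control library 3 and 0.17 when rescaled by the total without the members. Groups did not overlap for 3 members higher and 18 lower, beside 18.7% and 18.6% of all genes. The count of calls was 4 without control library 2, 2 without RNAi library 1 and between 7 and 8 without any other. It held 5 higher and 3 lower without control library 3, and 4 higher and 3 lower without RNAi library 3. Scaled by median ratios, 1 rose and 18 fell, beside 10.6% and 15.5% of all genes, and rescaled by the total without the members 27 rose and 2 fell, beside 31.6% and 8.06%. Fat body markers summed to 2853 to 4472 in controls and 1646 to 2177 under RNAi, with 6 of 10 lower. Salivary gland markers summed to 2346 to 2496 and 1201 to 1766, with 3 higher and 5 lower of 9. The hemocyte marker He rose (1.34 ± 0.21 (SE), adjusted p = 0.00107). The part of these markers in the counts was not tested.

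oho23B again fell most. It was at 79.1, 81.8 and 93.9 in controls and 48.4, 54.9 and 38.1 under RNAi, without overlap, a difference of -0.85 ± 0.13 (SE), adjusted p = 0.00116. RpS3A, the chromosome 4 member, was at 96.2, 105 and 119 in controls and 74.4, 75.9 and 63.01 under RNAi (-0.58 ± 0.11 (SE), adjusted p = 0.00394). Each RNAi library was below each control library for both, and neither call was lost without any 1 library. RpS28b (-0.54 ± 0.13 (SE), adjusted p = 0.0144) and RpS15Aa (-0.46 ± 0.13 (SE), adjusted p = 0.0222) fell too, and both calls were lost without Tfb1 RNAi library 1.

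RpL4 rose. Its controls were at 14.8, 8.77 and 13.3 and its RNAi libraries at 20.6, 19.5 and 17.2, all above the controls, a difference of 0.62 ± 0.18 (SE), adjusted p = 0.0275. The call was lost without control library 2 and without RNAi library 1 or 2. Relative to the members' median, 13 members were higher and 2 lower, beside 19.5% and 7.19% of all genes, with RpL4 at 0.80 ± 0.17 (SE), adjusted p = 0.00535 and oho23B at -0.67 ± 0.11 (SE), adjusted p = 0.00124.

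The Tfb1 effect was tested for a difference between diets, which asks whether the fall on 0.15 M differed from that on 1.0 M. By limma 0 members passed, where 8.41% of all genes were called, 7.12% higher and 1.3% lower. At an unadjusted p under 0.05 were 25 of 83 members, beside 679 of all 2698 genes tested. The members' median difference was 0.42 against 0.13 for all genes. For oho23B it was 0.56 ± 0.19 (SE), adjusted p = 0.104. Without control library 3 on 1.0 M the count was 7, and without Tfb1 RNAi library 3 on 1.0 M it was 9.

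In cg females, 33 of 80 ribosomal protein mRNAs rose on 0.7 M against 0.15 M sucrose and 0 fell, where 39.7% of all genes were called, 27.5% rose and 12.3% fell. All 80 had a positive sign, with a median of 0.36 against 0.15 for all genes. For 48 members the groups did not overlap, beside 36.5% of all genes. Of the large subunit 22 of 46 genes rose and of the small subunit 11 of 34. The difference between males and females was not tested, since diet, sex and isolation all differed.

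RpL5, which carries the 5S ribosomal RNA, was at 99.99, 95.8 and 109 on 0.15 M and 179.6, 157 and 148 on 0.7 M. The diets did not overlap, and the difference was 0.66 ± 0.12 (SE), adjusted p = 0.00674. RpL3, near the peptidyl transferase centre, was at 38.2, 35.3 and 34.05 and 59.9, 54.6 and 57.4 (0.66 ± 0.11 (SE), adjusted p = 0.00432). For RpL4 the values were 28.8, 25.96 and 22.1 and 38.7, 43.8 and 41.7 (0.68 ± 0.13 (SE), adjusted p = 0.00898). In all 3 genes every library on 0.7 M was above every library on 0.15 M, and no call was lost without 1 library.

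RpL39 had the largest change, from 89.3, 55.6 and 78.9 to 152, 104 and 121 (0.75 ± 0.22 (SE), adjusted p = 0.0355), and its call was lost without library 2 or 3 on 0.15 M or library 1 or 3 on 0.7 M. RpL38 was at 37.1, 37.7 and 40.2 on 0.15 M and at 63.3, 57.4 and 49.2 on 0.7 M, without overlap (0.54 ± 0.13 (SE), adjusted p = 0.0177). Leaving out 1 library gave 10 to 24 calls, with 20, 10 and 24 without libraries 1, 2 and 3 on 0.15 M and 14, 18 and 16 without libraries 1, 2 and 3 on 0.7 M.

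Set against the members' median in each library, the differences of RpL3, RpL4 and RpL5 were 0.30, 0.31 and 0.29, and none of the 3 was called. The direction of the whole set rested on the scale: rescaled by the total without the members, no member was called, beside 38.4% of all genes, their median was -0.06 and 32 of 80 kept a positive sign. That rescaling moved the median of all genes by -0.31 to -0.16, so the members stood at 0.10 relative to all genes in place of 0.21. Hemocyte markers summed to 9.20 to 13.1 on 0.15 M and to 1.49 to 1.61 on 0.7 M, and 4 of 4 tested fell. Gut markers summed to 4.89 to 74.4 and 1.78 to 2.53, with 3 of 6 tested lower, and 2 of 5 salivary gland markers were lower. Summed fat body markers were at 5309.7 to 7216 on 0.15 M and 10549 to 12329 on 0.7 M, and 5 of 10 rose. Their part in the result was not tested.

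In w1118 females, where 4 sucrose concentrations were tested, the members' median was above 0 at each concentration over 0.15 M, and no member fell. All comparisons with 0.15 M share those libraries, so they are not independent of each other. At 0.3 M 6 of 80 rose and 0 fell, where 7.72% of all genes were called, 6.34% higher and 1.38% lower, and the members' median was 0.53 against 0.15. At 0.7 M 13 rose and 0 fell, beside 11.3% and 2.94% of all genes, with medians of 0.37 and 0.15. At 1.0 M 3 rose and 0 fell, beside 12.6%, with medians of 0.30 and 0.08. A linear trend over the 4 concentrations called 1 member higher, RpL5 (0.66 ± 0.17 (SE), adjusted p = 0.0218), beside 12.0% of all genes higher and 5.47% lower; its values are changes per 1 M of sucrose. Under the rescaling by the total without the members the medians were 0.19, 0.19 and 0.17 at 0.3, 0.7 and 1.0 M.

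Individual calls at 0.3 M were few, although the sign was positive for 80 of 80 members. At an unadjusted p under 0.05 were 57 members, beside 619 of all 2177 genes tested. For 31 the groups did not overlap with 0.3 M higher, beside 23.8% of all genes higher and 6.48% lower. Library 1 on 0.3 M decided the count: 53 members were called without it and 0 without any other of the 6 libraries. The share of all genes called in these fits is not given, so the 53 cannot be read as particular to the members. RpL21 was at 108, 85.1 and 96.9 on 0.15 M and 123, 213 and 185 on 0.3 M (0.81 ± 0.19 (SE), adjusted p = 0.0359), and its library 1 on 0.3 M was near the control diet. oho23B was at 138, 110.1 and 145 and 179, 269 and 207 (0.72 ± 0.20 (SE), adjusted p = 0.0499), without overlap. RpS15Aa and RpS19a rose by 0.81 and 0.72.

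At 0.7 M RpL38, a small large-subunit protein whose gene lies in pericentromeric heterochromatin, stood out. It was at 7.26, 2.15 and 5.08 scaled FPKM on 0.15 M, at 23.6, 7.49 and 22.3 on 0.3 M, at 55.2, 74.1 and 54.7 on 0.7 M and at 2.21, 2.18 and 31.5 on 1.0 M. All 3 libraries on 0.7 M were above all others of the experiment, and on 1.0 M library 3 was high while its 2 fellows were in the range of the control diet. The difference at 0.7 M was 3.51 ± 0.79 (SE), adjusted p = 0.0161, and relative to the members' median 3.08 ± 0.81 (SE), adjusted p = 0.0345. The call was lost without library 2 on 0.15 M or library 2 on 0.7 M.

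RpS15Aa was at 63.6, 46.96 and 57.5 on 0.15 M, 82.7, 103 and 112 on 0.3 M, 116, 132 and 147 on 0.7 M and 55.7, 66.8 and 93.7 on 1.0 M. Every library on 0.7 M was above all of 0.15, 0.3 and 1.0 M, and the difference from 0.15 M was 1.22 ± 0.21 (SE), adjusted p = 0.0043, kept without any 1 library. Its second copy RpS15Ab was at 20.7, 14.3 and 20.7 and then 23.6, 27.02 and 32.2 on 0.7 M (0.55 ± 0.23 (SE), adjusted p = 0.129). RpS29 went from 166, 122 and 163 to 279, 347 and 339 (1.098 ± 0.23 (SE), adjusted p = 0.0118), lost without library 2 on 0.7 M. RpL11, which binds the 5S RNA together with RpL5, went from 48.5, 52.5 and 71.8 to 99.7, 112 and 124 (0.96 ± 0.19 (SE), adjusted p = 0.00845), kept without any 1 library. At 0.7 M the groups did not overlap for 34 members higher, beside 30.3% of all genes higher and 9.46% lower, and leaving out 1 library gave 3 to 12 calls, with 3 and 6 without libraries 2 and 3 on 0.7 M and 7 without library 2 on 0.15 M.

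On 1.0 M the called members were RpL23A (0.62 ± 0.18 (SE), adjusted p = 0.0402), RpL5 (0.61 ± 0.16 (SE), adjusted p = 0.0259) and RpL4 (0.58 ± 0.16 (SE), adjusted p = 0.0295). RpL5 was at 116, 91.97 and 92.4 on 0.15 M and 134, 159 and 165 on 1.0 M, without overlap. The diets did not overlap for 31 members, beside 25.1% of all genes. Without library 2 on 0.15 M or library 2 on 1.0 M no member was called by limma, and without library 1 of either group 1 was. Gut markers summed to 55.4 to 140.0 on 0.15 M, 17.1 to 51.1 on 0.3 M, 3.75 to 6.06 on 0.7 M and 3.85 to 9.61 on 1.0 M, with 4 of 7 tested lower on each diet. Muscle markers summed to 6.53 to 10.9, 16.1 to 21.9, 10.03 to 11.6 and 6.90 to 13.1, and the actin gene Act57B rose at 0.3 M (1.41 ± 0.18 (SE), adjusted p = 0.00438). Of 10 fat body markers, 1 was higher and 2 were lower at 0.7 M and at 1.0 M; their part in the result was not tested.

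**Figure D4:**
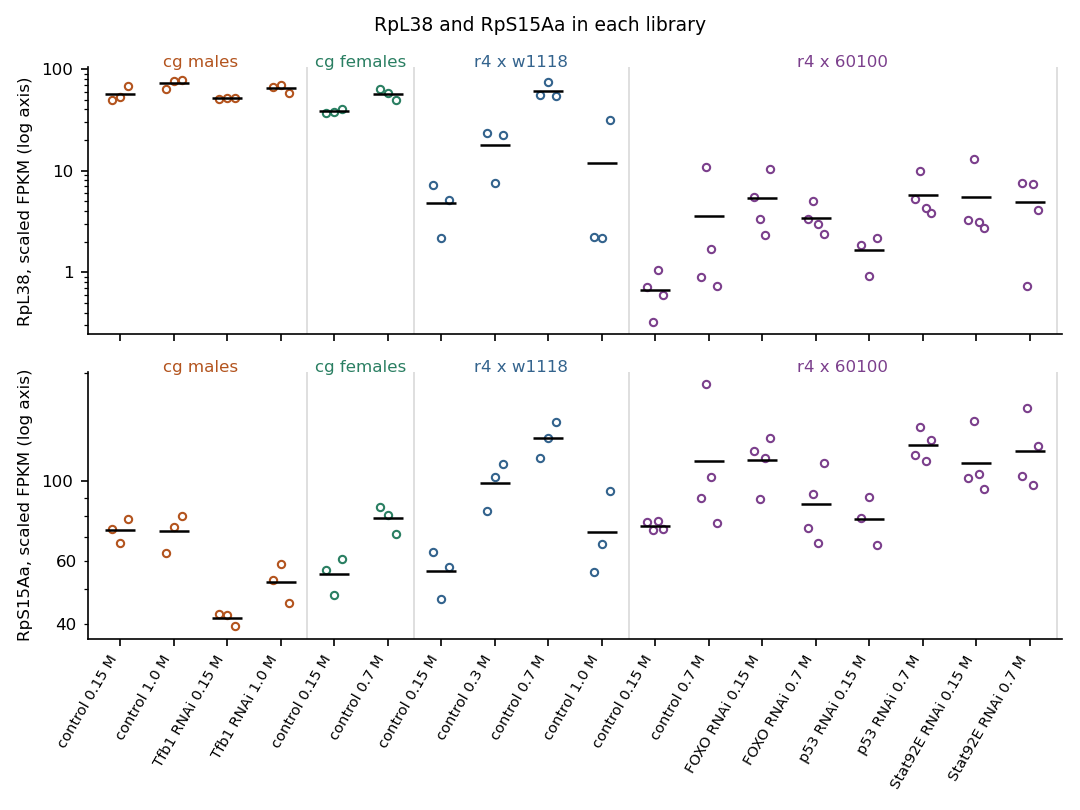
Scaled FPKM of RpL38 and RpS15Aa in each library on a log axis, by experiment and group. Circles are libraries and bars are group means; in r4 x w1118 females both are highest on 0.7 M sucrose, and RpL38 is at or under 1.04 in the 60100 controls on 0.15 M.

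RpL38 also varied between experiments. It was at 49.2 to 78.6 in males and at 37.1 to 40.2 in cg females on 0.15 M. In 60100 controls it was at 0.721, 0.321, 1.04 and 0.590 on 0.15 M and at 0.888, 10.9, 1.69 and 0.738 on 0.7 M, where library 2 was far above the rest. Scaled FPKM are set within an experiment, so these levels are given side by side and the experiments were not compared.

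In 60100 control females, 8 of 80 members rose and 3 fell on 0.7 M against 0.15 M sucrose, where 18.7% of all genes rose and 12.4% fell. The members' median was 0.32 against 0.11 for all genes, 63 of 80 had a positive sign, and the diets did not overlap for 10 members higher and 2 lower, beside 16.1% and 9.2% of all genes. Leaving out 1 library gave between 1 call (without library 2 on 0.7 M) and 34 (without library 4 on 0.7 M), with 2 without library 3 on 0.7 M and 4, 5, 7 and 7 without each library on 0.15 M. Without the second column of both groups 9 rose and 1 fell, beside 18.9% and 13.3% of all genes, and the median was 0.16. Scaled by median ratios 25 rose and 0 fell, beside 27.1% of all genes higher and 8.17% lower. With the length trend removed 4 rose and 7 fell, beside 15% and 18.3%, and rescaled by the total without the members 19 rose and 3 fell, beside 17.7% and 9.93%.

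RpL8, a large-subunit protein near the catalytic centre, was at 152, 148, 148 and 159 on 0.15 M and 233, 293, 264 and 175 on 0.7 M. All libraries on 0.7 M were above those on 0.15 M, and the difference was 0.64 ± 0.21 (SE), adjusted p = 0.0246, lost without library 2 or 3 on 0.7 M. RpL11 was at 146, 122, 129 and 143 and 203, 259, 223 and 139 (0.57 ± 0.18 (SE), adjusted p = 0.0187), with library 4 on 0.7 M within the range of 0.15 M. RpS3A (0.52 ± 0.18 (SE), adjusted p = 0.0262) and RpS7 (0.51 ± 0.16 (SE), adjusted p = 0.0194) rose too, and the calls of RpL11, RpS3A and RpS7 were lost without library 2 on 0.7 M.

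Against the other members, RpS27A fell. It was at 220.2, 205, 216 and 236 on 0.15 M and 168, 198, 163 and 174 on 0.7 M. No library on 0.7 M reached the lowest on 0.15 M, the difference was -0.32 ± 0.09 (SE), adjusted p = 0.00924, and no 1 library decided the call, which was lost when scaled by median ratios (-0.17). RpL35 was at 147, 160.2, 122 and 178 and 117, 80.3, 109.7 and 136 (-0.46 ± 0.15 (SE), adjusted p = 0.0207), and RpS20 at 119.9, 125, 114 and 139 and 108, 92.9, 86.6 and 113 (-0.31 ± 0.11 (SE), adjusted p = 0.0371). The RpL35 diets overlapped and those of RpS20 did not. Relative to the members' median 5 members were higher and 8 lower, beside 6.51% and 17.5% of all genes, with RpS27A at -0.59 ± 0.12 (SE), adjusted p = 0.00233. Muscle markers summed to 12.9 to 20.3 on 0.15 M and 24.1 to 74 on 0.7 M, with 7 of 8 tested higher, and gut markers to 3.99 to 105 and 54.4 to 122, with 4 of 9 higher. Fat body markers summed to 13951 to 15000.4 and 9497 to 13178, with 1 of 10 higher and 5 lower and a median of -0.40; their part was not tested.

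FOXO is a transcription factor that insulin signalling holds out of the nucleus, and Thor (4E-BP) is among its targets. Under FOXO RNAi on 0.15 M sucrose 3 of 80 members rose and 0 fell, beside 6.58% and 10.7% of all genes, with a members' median of 0.14 against 0.02. The groups did not overlap for 7 members, beside 7.93%. Without the second column of each group 27 rose and 0 fell, beside 15.9% and 16.7% of all genes, and the median was 0.26. Leaving out FOXO RNAi library 2 alone gave 14 calls, and leaving out RNAi library 1 or 4 gave 0. Rescaled by the total without the members 61 rose and 0 fell, beside 36.1% and 4.24% of all genes, with a median of 0.44, where the median of all genes moved by 0.21 to 0.23. Fat body markers summed to 13951 to 15000.4 in controls and 7849.7 to 9661 under FOXO RNAi, with 6 of 10 lower, and gut markers to 3.99 to 105 and 95.2 to 336, with 4 of 9 higher. Salivary gland markers were lower for 5 of 6 and muscle markers for 1 of 8 tested; their part was not tested.

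RpL39 was at 55.9, 74.9, 49.9 and 69.03 in controls and 115.5, 77.4, 113 and 154 under FOXO RNAi. Each RNAi library was above each control, the second by the least, and the difference was 0.85 ± 0.28 (SE), adjusted p = 0.038. RpL21 was at 109, 104, 116 and 99.5 and 185, 131, 187 and 184 (0.66 ± 0.22 (SE), adjusted p = 0.0392), also without overlap. RpL38 was at 0.721, 0.321, 1.04 and 0.590 in controls and 5.45, 3.37, 2.31 and 10.3 under RNAi, all above the controls (1.79 ± 0.53 (SE), adjusted p = 0.0201). Its controls lay near the filter mean of 1, which RpL38 passed through higher values in other groups. Its call thus leans on the groups where it was high and is no support by itself. These 3 calls were each lost without RNAi library 1 or without RNAi library 4, and without any library other than RNAi library 2 the count was 0 to 2.

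On 0.7 M sucrose, where FOXO RNAi and control foxo values overlapped, 0 members rose and 1 fell, RpS25, beside 9.76% and 17.0% of all genes. RpS25 was at 229, 235, 242 and 212 in controls and 195, 127, 174 and 189 under RNAi, without overlap (-0.44 ± 0.15 (SE), adjusted p = 0.0355), and the call was lost in 5 of the 8 fits that left out 1 library. The members' median was -0.17 against -0.13, 0.06 without the second column of each group and 0.34 when rescaled by the total without the members, under which 40 rose and 0 fell, beside 35.1% and 4.83% of all genes, and RpS25 was at 0.07. That rescaling moved the median of all genes by 0.37 to 0.24. Without the second column 2 rose and 1 fell, beside 10.1% and 17.3%. Leaving out 1 library gave 0 to 3 calls, 0 in 5 of the 8 fits, 2 without control library 4 and 3 without RNAi library 4. Groups did not overlap for 5 members lower, beside 14.6% of all genes. Fat body markers summed to 9497 to 13178 in controls and 6633 to 7931 under RNAi, with 2 of 10 higher and 5 lower, and 2 of 9 gut markers were lower; their part was not tested.

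The FOXO RNAi effect differed between diets for 3 members, all lower on 0.7 M, beside 7.54% of all genes called lower and 6.11% higher. The members' median difference was -0.35 against -0.11. For RpL39 it was -1.26 ± 0.40 (SE), adjusted p = 0.0362, for RpS15Aa -0.93 ± 0.30 (SE), adjusted p = 0.0398 and for RpS3A -0.84 ± 0.25 (SE), adjusted p = 0.0274. RpL39 was at 74.7, 183, 68.01 and 61.4 in controls and 52.3, 77.7, 61.9 and 70.3 under RNAi on 0.7 M. RpS15Aa was at 76.8, 73.04, 77.4 and 73.5 and 122, 89.3, 116 and 132 on 0.15 M, and at 89.7, 187, 103 and 76.6 and 74.1, 92.4, 67.2 and 112 on 0.7 M. RpS3A was at 61.03, 62.7, 71.6 and 53.05 and 87.4, 82.6, 88.9 and 91.4 on 0.15 M, and at 76.6, 129.7, 86.6 and 73.03 and 58.2, 79.8, 65.03 and 79.8 on 0.7 M. Control library 2 on 0.7 M was the highest of its group in all 3 genes, and all 3 calls were lost without it. The count was 17 without RNAi library 2 on 0.15 M, 16 without control library 4 on 0.7 M, 11 without RNAi library 4 on 0.7 M, between 0 and 3 without any other single library, and 6 without the second column of every group, beside 7.41% of all genes lower.

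RNAi of p53, a regulator of the DNA damage response, gave no call among the members on either diet in the scaled FPKM as deposited. On 0.15 M limma called 0 of 80, beside 1.11% of all genes higher and 1.03% lower. An unadjusted p under 0.05 was reached by 8 members and by 430 of all 2521 genes tested. The members' median was 0.22 against 0.03, 68 of 80 were positive, and the groups did not overlap for 14 members, all higher, beside 8.96% of all genes. On 0.7 M 0 were called, beside 4.6% and 7.74% of all genes, with a median of 0.16 against 0.01. An unadjusted p under 0.05 was reached there by 6 members and by 721 of all 2521 genes tested. Without control library 2 on 0.7 M the count was 10, and without any other it was 0. Without the second column of both groups 29 rose and 4 fell on 0.7 M, beside 16% and 15.3% of all genes, with a median of 0.30, and on 0.15 M 1 rose and 1 fell, beside 3.71% and 5.9%. Rescaled by the total without the members 7 rose on 0.15 M and 28 on 0.7 M, and none fell, beside 2.24% and 19.6% of all genes higher. With the length trend removed 3 fell on 0.7 M, beside 7.49% of all genes. Fat body markers on 0.7 M summed to 9497 to 13178 in controls and 6818 to 8186 under RNAi, with 1 of 10 higher and 6 lower, and 1 of 6 salivary gland markers was lower; their part was not tested. The effect differed between diets for 0 members, and 4 had an unadjusted p under 0.05, beside 135 of all 2521 genes tested. The members' median difference was -0.12, or 0.14 without the second columns.

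Stat92E is the only STAT of flies and acts below the JAK kinase. Under Stat92E RNAi on 0.15 M sucrose the sign was positive for 80 of 80 members, with a median of 0.39 against 0.08 for all genes. By limma 3 rose and 0 fell, beside 1.47% and 1.63% of all genes. At an unadjusted p under 0.05 were 44 members, beside 669 of all 2521 genes tested. The groups did not overlap for 35 members, all higher, beside 12.7% of all genes. Without the second column of each group 55 rose and 0 fell, beside 15.1% and 7.13%, and the median was 0.41. Leaving out 1 library gave 0 to 2 calls, and removing the length trend gave 0 with a median of 0.17, beside 0.729% of all genes called. Gut markers summed to 3.99 to 105 in controls and 18.7 to 194 under RNAi and fat body markers to 13951 to 15000.4 and 12326 to 12721, and no marker of either list was called; their part was not tested.

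RpL29 was at 304, 262, 315 and 359 in controls and 522, 517, 533 and 549 under Stat92E RNAi on 0.15 M. All RNAi libraries were well above all controls, and the difference was 0.78 ± 0.20 (SE), adjusted p = 0.0332. RpL15, another gene in heterochromatin, was at 135, 133, 145 and 122 and 179, 244, 189 and 163 (0.52 ± 0.14 (SE), adjusted p = 0.0464), and RpS27A at 220.2, 205, 216 and 236 and 268, 307, 306 and 255 (0.37 ± 0.09 (SE), adjusted p = 0.0278). Neither overlapped with its controls, and each of the 3 calls was lost in at least 6 of the 8 fits that left out 1 library.

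On 0.7 M sucrose 1 member rose under Stat92E RNAi, RpL8, and 0 fell, beside 6.7% and 6.35% of all genes. RpL8 was at 233, 293, 264 and 175 in controls and 388, 382, 334 and 418 under RNAi, without overlap (0.68 ± 0.21 (SE), adjusted p = 0.0382), and its call was lost in 6 of the 8 fits that left out 1 library. The members' median was 0.27 against 0.05, and the groups did not overlap for 20 members, all higher, beside 11.2%. Without control library 2 the count was 14, without control library 3 it was 1 and without any other it was 0. Without the second columns 43 rose and 1 fell, beside 20.1% and 14.7%, with a median of 0.36. Rescaled by the total without the members 20 rose, beside 9.74% of all genes, and with the length trend removed 12 rose, beside 10.5%; by median ratios 0 were called, beside 11%. The fat body markers together were at 9497 to 13178 in controls and 7817 to 10437 under RNAi, with 5 of 10 lower, Lsp1alpha by -1.52 ± 0.24 (SE), adjusted p = 0.00034; 1 of 6 salivary gland markers was lower, and their part was not tested. The difference between diets was called for 0 members, with a median of -0.12. At an unadjusted p under 0.05 were 9 members, beside 338 of all 2521 genes tested.

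**Figure D5:**
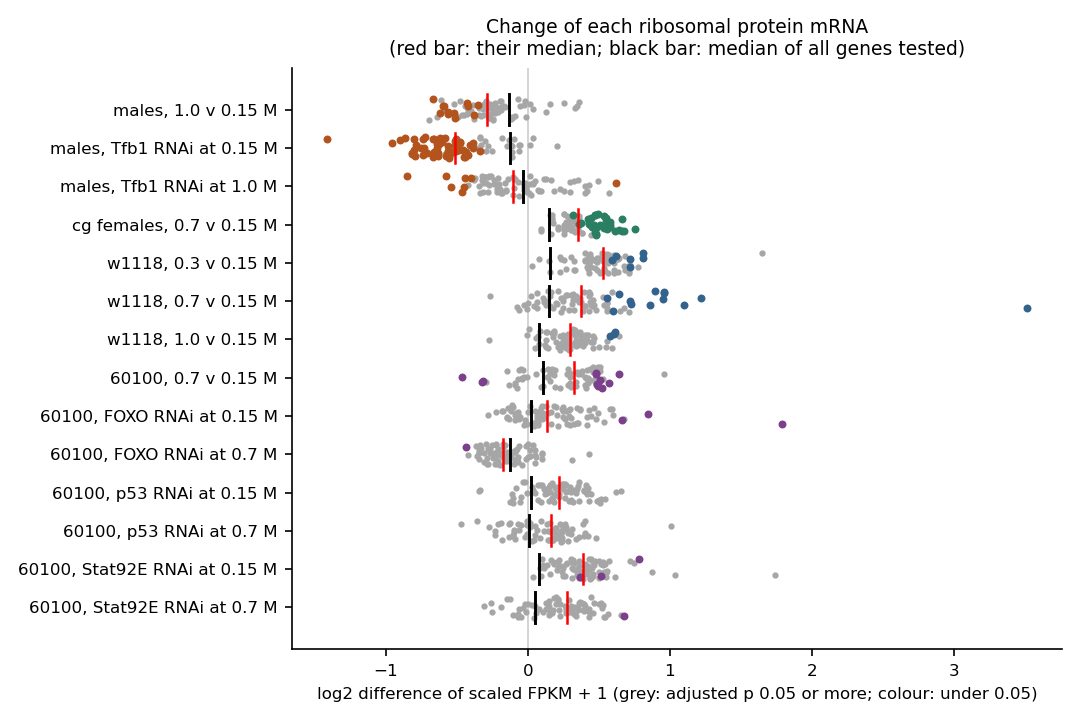
Log2 difference of scaled FPKM + 1 for each ribosomal protein mRNA tested (dots), by comparison. Coloured dots have an adjusted p under 0.05; the red bar is the members' median and the black bar that of all genes tested. The median is lowest for Tfb1 RNAi on 0.15 M (-0.51) and was -0.29 for diet in males. When libraries were rescaled by the total without the members these became 0.00 and 0.33, that for diet in cg females turned from 0.36 to -0.06, and those for Tfb1 RNAi on 1.0 M and FOXO RNAi on 0.7 M turned from -0.10 to 0.17 and from -0.17 to 0.34.

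Other genes of the translation machinery were counted in the same fits. Of 14 elongation factor and other terminal oligopyrimidine mRNAs tested in males, 7 fell and 1 rose under Tfb1 RNAi on 0.15 M, with a median of -0.34. Of all genes 25.8% fell and 10.4% rose there, with a median of -0.13. The elongation factor gene Ef1alpha48D was at -1.17 ± 0.18 (SE), adjusted p = 0.000452, and pAbp, the poly(A)-binding protein, rose by 1.35 ± 0.13 (SE), adjusted p = 1.82e-05. In cg females 5 of 15 rose and 0 fell on 0.7 M, beside 27.5% and 12.3% of all genes, with a median of 0.35 against 0.15. The largest rises of the list were those of eEF1delta (0.69 ± 0.11 (SE), adjusted p = 0.00409) and Ef2b (0.68 ± 0.12 (SE), adjusted p = 0.00608). In every other comparison at most 2 were called in a direction. Of 19 growth control genes found, 2 to 4 per experiment were tested. Among them Thor, the translation repressor 4E-BP, fell in males by diet (-0.61 ± 0.12 (SE), adjusted p = 0.00477). Under Tfb1 RNAi Thor fell on 0.15 M (-3.08 ± 0.12 (SE), adjusted p = 4.77e-08) and 1.0 M (-2.23 ± 0.12 (SE), adjusted p = 9.97e-07). This effect differed between diets (0.84 ± 0.18 (SE), adjusted p = 0.0155). Thor fell also in 60100 controls by diet (-0.76 ± 0.23 (SE), adjusted p = 0.014) and under FOXO RNAi on 0.15 M (-0.76 ± 0.23 (SE), adjusted p = 0.0207). Akt1 of the same list rose under Tfb1 RNAi on 0.15 M (0.81 ± 0.10 (SE), adjusted p = 0.000125) and 1.0 M (0.67 ± 0.10 (SE), adjusted p = 0.000803).

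Mitochondrial ribosomal proteins, which serve a separate ribosome, mostly lay under the filter: 72 were found, and 3 to 27 per experiment passed it. The most calls were for the difference of the FOXO RNAi effect between diets, with 0 higher and 6 lower of 27 and a median of -0.33. Of all genes 6.11% were higher and 7.54% lower, with a median of -0.11. Of 25 ribosome assembly and RNA polymerase I genes, 1 to 4 per experiment could be tested, and mod, a nucleolar protein gene, rose in males by diet (0.55 ± 0.11 (SE), adjusted p = 0.00397) and under Tfb1 RNAi on 0.15 M (0.67 ± 0.11 (SE), adjusted p = 0.000755). Tif-IA of the same list rose there too, by 0.30. On 0.7 M Fib and NHP2 rose by 0.50 and 0.29 under p53 RNAi and by 0.50 and 0.30 under Stat92E RNAi. Proteasome subunits, which degrade proteins, had 28 tested genes. In 60100 females 16 rose by diet with a median of 0.37 and 17 rose under Stat92E RNAi on 0.7 M with a median of 0.37, against 8 and 1 of 80 ribosomal protein genes. Of all genes 18.7% and 6.7% rose in these 2 comparisons. In cg females 2 of 28 proteasome genes rose, against 33 of 80 ribosomal protein genes and 27.5% of all genes.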

How the data were processed

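Fat body RNA was sequenced from 61 libraries of 18 groups. Per the labels, total RNA was depleted of ribosomal RNA and sequenced on an Illumina HiSeq. Per the submitters' processing notes, TopHat 1.3.2, Bowtie 0.12.7 and Cufflinks 1.1.0 were used with genome build dm3. The deposited values are FPKM per gene that the authors had processed. A scaling by rank is seen in the values, since gene counts at 1 or above matched, to within 1, in all libraries of an experiment, and no label describes it. Counts are not used here, so depth was estimated roughly from the lower edge of the distribution of FPKM multiplied by transcript length.

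limma 3.58.1 (R 4.3.3) was run within each experiment on log2(FPKM + 1) for genes whose mean reached 1, with a variance trend and Benjamini-Hochberg adjustment over all genes tested; a call needed an adjusted p under 0.05. The script was tested on simulated data. Sensitivity settings were a pseudocount of 0.1, no filter, median-ratio scaling, scaling by the library total without the members, removal of a trend on transcript length, a replicate block, and each library left out. Leaving out the second column of each 60100 group was added after the data were seen.

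Members and gene lists were chosen with earlier results of these data known. Genes named were, per comparison, up to 4 called members in each direction by size of change, the 6 highest and 6 lowest by level, second copies with their partners, and sta, sop, oho23B, RpS6, RpL40, RpS27A, RpLP1 and RpLP2; for other lists, up to 2 called genes per comparison. RpL38 in cg females and 60100 controls, and RpL4 in males on 0.15 M, were named after their values were seen. A planned search of promoters for motifs was not run, since no genome of the files' build was used here.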

Additional observations from a re-analysis of the deposited data

Results flagged for a closer look

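In groups of 4 libraries, 13 of 105 sets of values over 15 items had 1 library far from the other 3. The items were the members' share, RpL38 and the members named in the 60100 comparisons, so they were picked from these same values. They also share libraries, so no chance rate can be set beside the 13. All but 1 were library 2 of a 60100 group. In controls on 0.15 M sucrose the members' share was 18.3% in library 2, against 17.0% in the next. In controls on 0.7 M, library 2 was high for RpL15 (156, next 128), RpL21 (271, next 129), RpL38 (10.9, next 1.69) and RpL39 (183, next 74.7), all in scaled FPKM. Under FOXO RNAi on 0.15 M, library 2 was low for RpL21 (131, next 184), RpL8 (138, next 211) and RpS25 (151, next 235). Under Stat92E RNAi on 0.15 M, library 2 was low for RpL35 (130.2, next 169) and RpS20 (118, next 143) and high for RpL38 (13.0, next 3.26). Under p53 RNAi on 0.7 M, library 2 was high for RpS3A (118, next 81.5). The remaining one was library 4 under FOXO RNAi on 0.7 M, high for RpL21 (168, next 116).

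The effect of FOXO RNAi differed between 0.15 M and 0.7 M sucrose by limma for RpL39 (-1.26, adjusted p = 0.0362), RpS3A (-0.84, adjusted p = 0.0274) and RpS15Aa (-0.93, adjusted p = 0.0398). All 3 were lost without control library 2 on 0.7 M.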

How the results depend on the processing

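Over settings other than leaving out a library, 64 counts of called members stayed within 1.5 times and 46 moved; the cause was not tested. With no filter the counts were 2 (diet, males), 4 (Tfb1 on 1.0 M), 1, 0 and 1 (FOXO on 0.15 M, on 0.7 M and their difference) and 5 (Stat92E on 0.15 M). Beside these, 8.9%, 9.18%, 8.71%, 12.2%, 7.09% and 5.96% of all genes were called. Rescaled by the total without the members they were 43, 14 and 29 in males (diet, Tfb1 on 0.15 M and on 1.0 M), beside 47.4%, 37.2% and 39.7% of all genes. The 43 were all higher, where the 12 without rescaling were all lower, and the 14 were 6 higher and 8 lower. There were 0 in cg females, 0 at 0.3 M and 3 for the trend in w1118 females, beside 38.4%, 2.88% and 19%. In 60100 females there were 22 for diet, 61 and 40 for FOXO, 7 and 28 for p53 and 1 and 20 for Stat92E. Shares of all genes there were 27.7%, 40.3%, 39.9%, 2.59%, 22.5%, 1.41% and 14.3%. Without the length trend they were 6 and 31 in males (diet, Tfb1 on 0.15 M), 0 at 0.3 M, 2 for the trend, 11 for 60100 diet, 0 for the FOXO difference, 3 for p53 on 0.7 M, and 0 and 12 for Stat92E. Shares of all genes were 27.9%, 36%, 2.86%, 18.4%, 33.3%, 11.7%, 15%, 0.729% and 18.1%, in that order. The 6 were 3 higher and 3 lower, and the 11 were 4 higher and 7 lower. Median ratios gave 19 for Tfb1 on 1.0 M, 1 for its difference, 25 for 60100 diet, 7, 0 and 1 for FOXO and its difference, and 0 for Stat92E on 0.7 M. The shares of all genes were 26.1%, 8.31%, 35.2%, 16.8%, 23.1%, 11.1% and 11%. A pseudocount of 0.1 gave 2 for the trend, beside 17.3% of all genes. Without the second columns the counts were 27, 3 and 6 for FOXO and its difference, 33 on 0.7 M, 2 on 0.15 M and 2 for the difference for p53, and 55, 44 and 4 for Stat92E. In the same order 32.6%, 27.4%, 14%, 31.3%, 9.6%, 3.31%, 22.3%, 34.8% and 3.11% of all genes were called.

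Medians reversed under the total without the members: 0.33 (diet, males), 0.0012 and 0.17 (Tfb1), -0.062 (cg females) and 0.34 (FOXO on 0.7 M). The Stat92E difference was 0.066 without the length trend. Without the second columns FOXO on 0.7 M was 0.062 and the p53 difference 0.14, and without control library 3 on 1.0 M Tfb1 on 1.0 M was 0.016, the highest of a range from -0.18. RpL23 and RpL19 turned to 0.0287 and 0.0292 (diet, males) and RpS25 to 0.072 (FOXO on 0.7 M).

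Leaving out 1 library gave 0 to 28 calls for diet in males, 34 to 56, 2 to 8 and 0 to 9 for Tfb1 on 0.15 M, on 1.0 M and their difference, and 10 to 24 in cg females. In w1118 females it gave 0 to 53, 3 to 12 and 0 to 2 at 0.3, 0.7 and 1.0 M, and 0 to 2 for the trend. In 60100 females it gave 1 to 34 for diet, 0 to 14, 0 to 3 and 0 to 17 for FOXO, 0 to 0, 0 to 10 and 0 to 0 for p53, and 0 to 2, 0 to 14 and 0 to 1 for Stat92E. The share of all genes called in these fits is not given, so the ranges show only how far 1 library moved the members' counts.

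In cg females, deviations correlated over 0.1 in 0 of 3 same-numbered and 3 of 6 other pairs of libraries. In w1118 females they did so in 6 of 18 same-numbered and 8 of 36 other pairs, with highest values of 0.37 and 0.22. Pairing by number was thus not clear, and numbers were not taken as pairing. With the replicate block the trend had 3 calls, cg females 29, and 0.3, 0.7 and 1.0 M had 6, 13 and 4. Beside these, 17.3%, 34.4%, 6.84%, 13.7% and 16.2% of all genes were called, in that order. Members near 1 scaled FPKM rest on few fragments, which limits RpL38 in 60100 females and the second copies.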
